A study of Mus musculus with 18 samples.

Results

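The ISG15 conjugation system is a set of interferon-induced genes that attach a small ubiquitin-like protein to other proteins. The 5 mouse genes described here were Isg15, Uba7, Ube2l6, Herc6 and Usp18, taken by their symbols, with earlier results of these data known. All 5 were listed among the 14423 genes of the authors' deposited bone marrow table and among the 21830 genes of the authors' deposited spleen table, and 13777 genes stood in both. ISG15 is the modifier. UBA7 is the E1 enzyme that activates it, UBE2L6 is the E2 that carries it, and HERC6 is the main E3 ligase that joins it to targets in the mouse. USP18 is the protease that removes ISG15 from targets, and apart from that activity it binds the interferon receptor subunit IFNAR2 and dampens type I interferon signalling. Transcription of these genes is driven mainly by ISGF3, a transcription factor complex formed downstream of the interferon receptor, so the group is a common readout of interferon activity in blood-forming tissue.

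All mice were C57BL/6. Cgas-/- mice lack the DNA sensor cGAS, which makes the second messenger cGAMP. The dKO mice are Trex1-/-;Sting1gt/gt, lacking the cytosolic DNA exonuclease TREX1 and carrying the goldenticket allele of Sting1, which leaves the cGAMP receptor STING without function. In bone marrow, 4 libraries of Cgas-/- mice were compared with 4 of dKO mice. In spleen, 5 libraries from recipients of Cgas-/- marrow were compared with 5 from recipients of dKO marrow. Every spleen recipient was itself dKO and lethally irradiated, and its spleen was taken 12 weeks after the transplant, so host cells that survived irradiation were dKO in both groups. No animal with intact Cgas, Trex1 and Sting1 was in either comparison. The labels give neither age nor sex. RNA came from suspensions of dissociated cells and was sequenced from the 3' ends of transcripts, so a tag count does not scale with transcript length.

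The data were 1 finished DESeq2 comparison per tissue, with a mean normalized count over both groups, a log2 fold change of Cgas-/- over dKO with its standard error (SE), and a p-value adjusted by the Benjamini-Hochberg method. Values per library were not analysed here, so the depth behind each value is unknown, and the spread of a gene is known only through its SE. Separate mice are not stated for the libraries, so a p-value here reflects only how these samples scatter, possibly for technical reasons. In bulk RNA, fewer cells of a type and less RNA per cell cannot be told apart. A gene was called when its adjusted p was below 0.05. That applied to 77 genes (0.534%) in the authors' deposited bone marrow table and to 29 genes (0.133%) in the authors' deposited spleen table. The targeted genes followed the labels in direction: in the authors' deposited tables Cgas had a log2 fold change of -1.13 ± 0.155 (SE) in bone marrow and -0.92 ± 0.217 in spleen, where it is listed as Mb21d1, and Trex1 of 1.45 ± 0.178 and 2.71 ± 0.199. Tags from 3' ends that lie outside a deleted part do not check a knockout, and the deleted parts are not described in the labels. The 3' end of Trex1 is also covered by Atrip on the same strand, so tags of the pair could not be told apart by strand.

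The promoter of Isg15 is shown because its gene had the largest log2 fold change of the 5 in both tissues, and because it holds the motif that ISGF3 is known to bind. The motif searched was GAAANNGAAA, the core of the interferon-stimulated response element, and its reverse complement TTTCNNTTTC, where N is any base. Sequences are from RefSeq on GRCm38.p6, and promoter entries, 250 bases before and 50 after the start, were held for 4 of the 5 genes, all but Usp18. The exact motif occurred in 1131 of 32851 promoter entries (3.44%), and of the 4 genes only Isg15 held it. Capitals mark the 3 overlapping matches in the 250 bases before the Isg15 start (chr4:156200819-156201068, minus strand, 5' to 3').

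Isg15: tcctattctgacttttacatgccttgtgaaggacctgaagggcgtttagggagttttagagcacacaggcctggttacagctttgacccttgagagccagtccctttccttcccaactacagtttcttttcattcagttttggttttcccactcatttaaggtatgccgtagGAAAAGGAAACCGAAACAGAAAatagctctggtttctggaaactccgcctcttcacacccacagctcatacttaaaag

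With 1 mismatch allowed, 35.4% of all promoter entries held the motif, and Isg15, Uba7 and Herc6 did. For Uba7 the 26 bases around such a match lie at chr9:107975532-107975557 on the plus strand, within the span of the Uba7 gene in GENCODE M21. For Herc6 they lie at chr6:57580787-57580812 on the plus strand, upstream of the gene. Capitals mark the 10 matched bases in each.

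Uba7: cagtctagTTTCACTTTTggtttcct

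Herc6: ggagatacTTTCTTCTTCcctgtctt

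The 250 bases before the Ube2l6 start held no match even with 1 mismatch, and are shown as the entry to set beside that of Isg15 (chr2:84798578-84798827, plus strand).

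Ube2l6: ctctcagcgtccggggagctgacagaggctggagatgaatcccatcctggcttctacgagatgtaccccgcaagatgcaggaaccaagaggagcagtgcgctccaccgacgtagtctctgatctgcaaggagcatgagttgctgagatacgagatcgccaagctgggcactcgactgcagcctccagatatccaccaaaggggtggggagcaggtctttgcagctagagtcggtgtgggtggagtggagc

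A match or its absence says only which letters stand in these windows, and binding of a factor was not measured.

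No gene of the system passed the threshold in either tissue. In bone marrow Isg15 and Herc6 were below 0 with unadjusted p-values under 0.05, and the 95% intervals of Uba7 and Ube2l6 lay within 0.26 of 0 on the log2 scale. In spleen Isg15 stood above 0, and all 5 intervals contained 0. In the authors' deposited tables, 4 of the 5 log2 fold changes were below 0 in bone marrow with a median of -0.31, where 50.5% of all genes were below 0 with a median of 0.00. In spleen 1 of 5 was below 0 with a median of 0.08, where 55.0% of all genes were below 0 with a median of -0.03. At an unadjusted p under 0.05, DESeq2 gave 2 of the 5 genes lower and 0 higher in bone marrow, against 8.85% of all genes in the authors' deposited table, and 0 of 5 in spleen, against 3.02%.

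**Figure D1:**
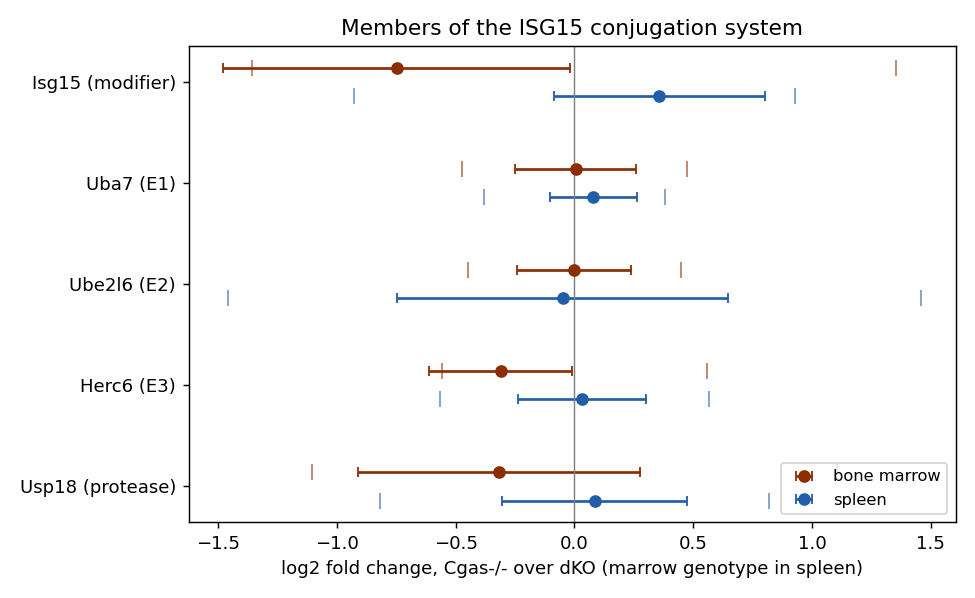
Log2 fold changes of Isg15, Uba7, Ube2l6, Herc6 and Usp18 (vertical axis, genes) in bone marrow and in spleen, Cgas-/- over dKO, with 95% intervals as bars and small ticks at the size a call would have needed. No point lies past its tick. Isg15 is at -0.75 in bone marrow and 0.36 in spleen.

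Isg15, the modifier, lies on chromosome 4 (GRCm38, 156199424 to 156200818, minus strand). Its mean normalized count in the authors' deposited bone marrow table was 34.9, which with the fold change gives about 26.0 in Cgas-/- and 43.8 in dKO libraries. Whether single libraries of the groups overlapped cannot be told from these values. Its log2 fold change there was -0.75 ± 0.372 (SE), with a 95% interval from -1.48 to -0.02 and an adjusted p of 0.539 (DESeq2, Benjamini-Hochberg). The unadjusted p was 0.0441. A call at this SE would have needed a change of 1.36 on the log2 scale, or 2.56-fold. Among the 5 genes Isg15 had the lowest mean in bone marrow, the widest SE and the log2 fold change farthest from 0.

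In spleen the mean of Isg15 in the authors' deposited table was 188, corresponding to about 211 in recipients of Cgas-/- marrow and 165 in recipients of dKO marrow. On the log2 scale the fold change was 0.36 ± 0.226 (SE), with a 95% interval from -0.09 to 0.80 and an adjusted p of 1.0 (DESeq2, Benjamini-Hochberg). It was the farthest from 0 of the 5 in spleen too, and its interval contained 0. A change of 0.93 on the log2 scale, or 1.90-fold, would have been called.

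Uba7, the activating E1 enzyme, lies on chromosome 9 (107975505 to 107984060, plus strand). In the authors' deposited bone marrow table its mean was 339, or about 340 in Cgas-/- and 338 in dKO libraries. Its log2 fold change was 0.01 ± 0.129 (SE) and its 95% interval ran from -0.25 to 0.26. In spleen its mean was 259, or about 266 in recipients of Cgas-/- marrow and 252 in recipients of dKO marrow, in the authors' deposited table. On the log2 scale it differed by 0.08 ± 0.0930 (SE), with a 95% interval from -0.10 to 0.26. The adjusted p was 0.998 in bone marrow and 1.0 in spleen (DESeq2, Benjamini-Hochberg). Changes beyond 1.39-fold in bone marrow and 1.30-fold in spleen would have been called. The 3' end of Uba7 is covered by Gm20661 on the same strand, which neither table lists, so tags of the pair could not be told apart by strand.

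Ube2l6, the E2 that takes ISG15 from the E1, lies on chromosome 2 (84798828 to 84810335, plus strand). It had the highest mean of the 5 in the authors' deposited bone marrow table, 410, and about 410 in both Cgas-/- and dKO libraries. Its log2 fold change was 0.00 in size ± 0.123 (SE), with a 95% interval from -0.24 to 0.24. In spleen it had the lowest mean of the 5, 12.9, or about 12.7 in recipients of Cgas-/- marrow and 13.2 in recipients of dKO marrow. The log2 fold change in the authors' deposited spleen table was -0.05 ± 0.356 (SE), and the 95% interval, -0.75 to 0.65, was the widest of the 5 there. Only a change past 2.75-fold would have been called in spleen.

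Herc6, the E3 ligase in the mouse, lies on chromosome 6 (57581000 to 57664632, plus strand). Its mean in the authors' deposited bone marrow table was 279, or about 249 in Cgas-/- and 309 in dKO libraries. Its log2 fold change was -0.31 ± 0.153 (SE), with a 95% interval from -0.61 to -0.01, an unadjusted p of 0.0426 and an adjusted p of 0.530 (DESeq2, Benjamini-Hochberg). In spleen the mean was 182, or about 184 in recipients of Cgas-/- marrow and 180 in recipients of dKO marrow. The log2 fold change in the authors' deposited spleen table was 0.03 ± 0.138 (SE), with a 95% interval from -0.24 to 0.30. Herc6 thus had a lower point value in bone marrow and one close to 0 in spleen, neither past the threshold.

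Usp18, the protease that removes ISG15, lies on chromosome 6 as well (121245906 to 121270917, plus strand). In the authors' deposited bone marrow table its mean was 55.1, or about 49.1 in Cgas-/- and 61.2 in dKO libraries. Its log2 fold change was -0.32 ± 0.303 (SE), with a 95% interval from -0.91 to 0.27 and an unadjusted p of 0.292 (DESeq2). In spleen the mean was 90.4, or about 93.1 in recipients of Cgas-/- marrow and 87.8 in recipients of dKO marrow, in the authors' deposited table. There its log2 fold change was 0.08 ± 0.20 (SE), with a 95% interval from -0.31 to 0.48. Its 3' end is overlapped by Gm44148 on the opposite strand, whose mean was 1.96 in the authors' deposited spleen table.

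**Figure D2:**
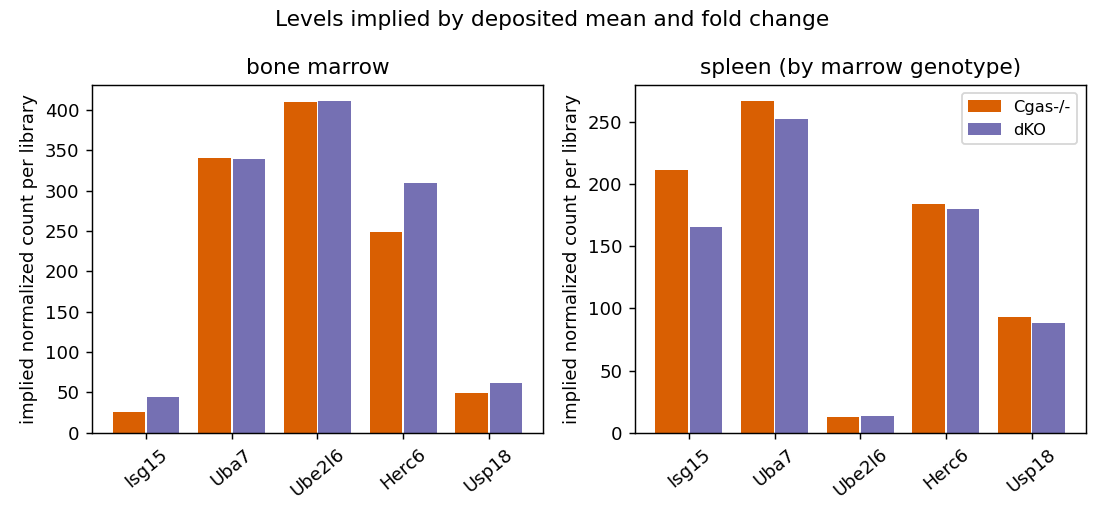
Normalized counts of the 5 genes (bars, vertical axis from 0) by tissue and group, computed from the deposited mean and fold change, Cgas-/- left of dKO, with no error because values per library were not analysed here. Isg15 stands at 26.0 against 43.8 in bone marrow and at 211 against 165 in spleen.

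By mean level in the authors' deposited bone marrow table the genes ran Ube2l6, Uba7, Herc6, Usp18 and Isg15, highest first. In spleen the order was Uba7, Isg15, Herc6, Usp18 and Ube2l6. Levels between the tables are not set side by side as measurements, since each was normalized on its own and the tables use different symbols for Cgas. Whether neighbours in an order differ beyond their spread cannot be told from these values.

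The difference between tissues was the spleen log2 fold change minus that of bone marrow, with their squared SEs summed and a normal p adjusted by the Benjamini-Hochberg method over the 13777 genes in both of the authors' deposited tables. It called 8 genes (0.0581%), and 661 genes (4.80%) had an unadjusted p under 0.05. The difference of Isg15 was 1.11 ± 0.435 (SE), with a 95% interval from 0.25 to 1.96 and an adjusted p of 0.878 with the authors' deposited DESeq2 values. It was not called. Herc6 differed by 0.34 ± 0.206, Usp18 by 0.40 ± 0.363, Uba7 by 0.07 ± 0.159 and Ube2l6 by -0.05 ± 0.376 (SE each). No gene of the system passed the threshold, while 1 of 5, Isg15, had an unadjusted p under 0.05. Only the spleens came from irradiated dKO recipients of transplanted marrow. In this difference, tissue therefore cannot be told apart from transplant, irradiation and host genotype.

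Uba7 lies 1.08 Mb from Trex1 on chromosome 9, and dKO carries the Trex1 knockout, so an effect of genotype and one of sequence linked to it cannot be told apart around Uba7. Within 0.5 Mb of Uba7 the authors' deposited bone marrow table called 2 of 40 genes (5.0%), Gnai2 and Mst1r, against 0.534% of all genes. The authors' deposited spleen table called 1 of 49 (2.04%), Rassf1, against 0.133% of all genes. Mst1r, a receptor tyrosine kinase, starts 0.0686 Mb from Uba7 and fell in bone marrow with a log2 fold change of -2.34 ± 0.472 (SE; DESeq2, Benjamini-Hochberg adjusted p = 0.000672), while its value in spleen was -2.50 without a call in the authors' deposited tables. Gnai2, a G-protein subunit, fell by 0.26 in bone marrow and Rassf1, a Ras-association protein, rose by 0.63 on the log2 scale in spleen. With a Student t reference for the Wald score of the authors' deposited tables none of the calls of Mst1r, Gnai2 and Rassf1 was kept, at adjusted p-values of 0.986, 0.986 and 0.391, and the Benjamini-Yekutieli adjustment lost that of Gnai2 (from DESeq2 values). The Student t reference dropped 29 of 35 calls of named genes, counted per tissue. Here and below, a call lost under it therefore does not single a gene out. Within 2 Mb the authors' deposited tables called 10 of 96 genes (10.4%) in bone marrow and 10 of 124 (8.06%) in spleen, Trex1 among both. Over all genes the shares were 0.534% and 0.133%. Among genes tested in both tissues, the 3 nearest on either side were Mst1r, Mon1a, Traip, Inka1, Ip6k1 and Gmppb. Of these only Mst1r was called, in bone marrow. Among the other 5, the bone marrow log2 fold changes ran from -0.17 (Traip) to 0.80 (Inka1) in the authors' deposited table, and those in spleen from -0.09 (Traip) to 0.11 (Mon1a). Uba7 was at 0.01 and 0.08.

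**Figure D3:**
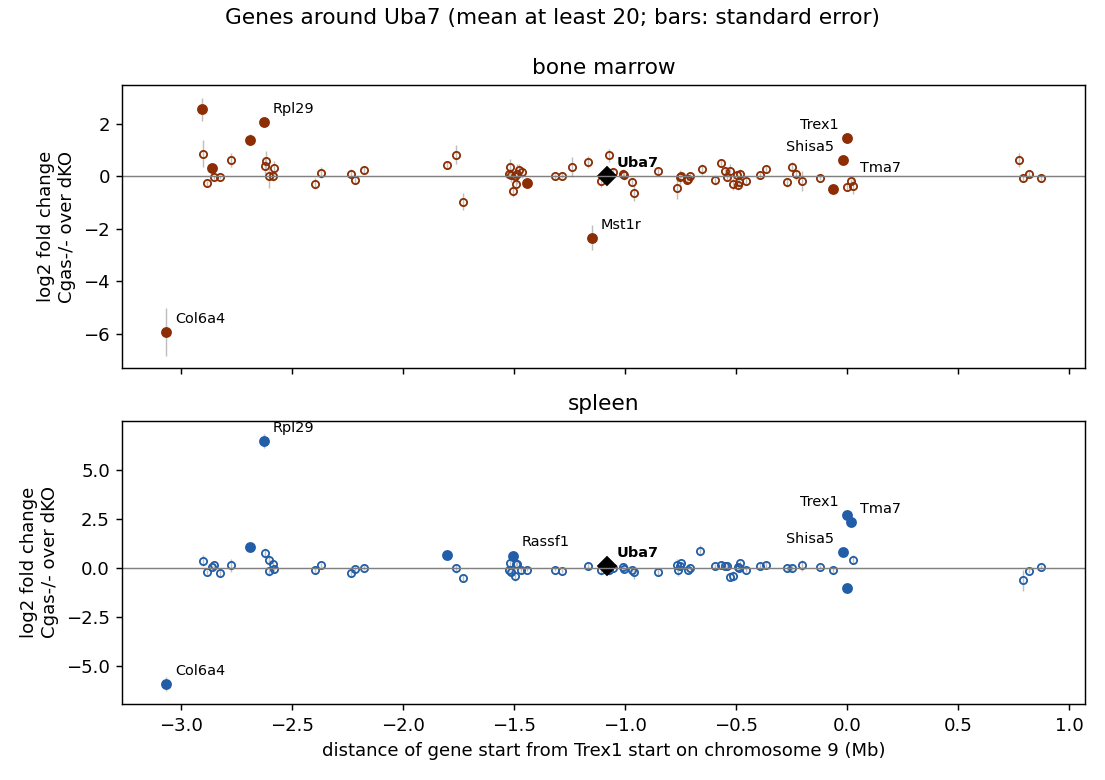
Log2 fold changes, Cgas-/- over dKO, of genes with a mean of at least 20 by distance from Trex1 on chromosome 9 (Mb), with standard errors as bars, called genes filled and Uba7 as a black diamond. Uba7 sits at 0.01 in bone marrow and 0.08 in spleen, while Mst1r, close to it, is at -2.34 in bone marrow.

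Isg15 was then set among 48 other interferon-stimulated genes, a list chosen with results of these data known. The lists described here share genes, so their summaries are not separate observations. Bst2, for example, is in this list and among the plasmacytoid dendritic cell markers. In the authors' deposited bone marrow table, 44 of the 48 were below 0 with a median of -0.31, and 8 (16.7%) were called, all lower, against 0.534% of all genes. They were Oas1a, Oas2, Oas3 and Oasl1, of the 2'-5'-oligoadenylate synthetase family of RNA sensors and its relative, together with Rtp4, Ifi27, Ifi27l2a and Slfn1. Oas2 fell by 1.20 and Rtp4 fell by 0.92 on the log2 scale. With a Student t reference for the Wald score 0 of the 8 were called, and with the Benjamini-Yekutieli adjustment 4 were. Slfn1, at an adjusted p of 0.0436 (DESeq2, Benjamini-Hochberg), lost its call under 4 of 7 alternative settings. Of the 48 genes, 11 had a lower log2 fold change than Isg15 in bone marrow, 24 lower than Herc6, 24 lower than Usp18 and 44 lower than Uba7 and than Ube2l6. In spleen 8 of 48 were below 0 with a median of 0.11 and none was called by DESeq2 in the authors' deposited table, where 4 higher and 1 lower had an unadjusted p under 0.05. There, 4 of the 48 had a higher log2 fold change than Isg15.

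By distance over the log2 fold changes in the 2 comparisons, among 8046 genes with a mean of at least 50 in both of the authors' deposited tables, the genes most like Isg15 were Zbp1, Oasl2, Avpr2, Irf7 and Ifi27l2a. Their distances from Isg15 were 0.0367, 0.0736, 0.0957, 0.0962 and 0.130 in that order. Zbp1, a nucleic acid sensor, stood at -0.75 in bone marrow and 0.39 in spleen. With 2 values a gene, this likeness is a description only.

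The receptor and ISGF3 genes, which carry the interferon signal to these promoters, had no call. In the authors' deposited bone marrow table, 7 of 8 were below 0 with a median of -0.16 and none was called by DESeq2. Irf7, a factor that amplifies interferon production, had a log2 fold change of -0.66 with an adjusted p of 0.0790 (DESeq2, Benjamini-Hochberg). In spleen 2 of 8 were below 0, with a median of 0.03 and none called, and Irf7 stood at 0.31 in the authors' deposited table.

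The counterparts of these enzymes in the ubiquitin, SUMO and NEDD8 systems spread around 0. Of 49 counterparts in the authors' deposited bone marrow table, 19 were below 0 with a median of 0.03, and their log2 fold changes ran from -0.24 (Uchl3) to 0.34 (Otub1). Of 48 in spleen 21 were below 0 with a median of 0.02, and the lowest was Herc1 at -0.26. DESeq2 called none in either of the authors' deposited tables. At an unadjusted p under 0.05, 3 were higher and 1 lower in bone marrow, and 1 higher and 2 lower in spleen. Ube2l3, the E2 for ubiquitin most closely related to Ube2l6, had a log2 fold change of -0.17 ± 0.080 (SE) in bone marrow and 0.02 in spleen, per the authors' deposited tables.

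**Figure D4:**
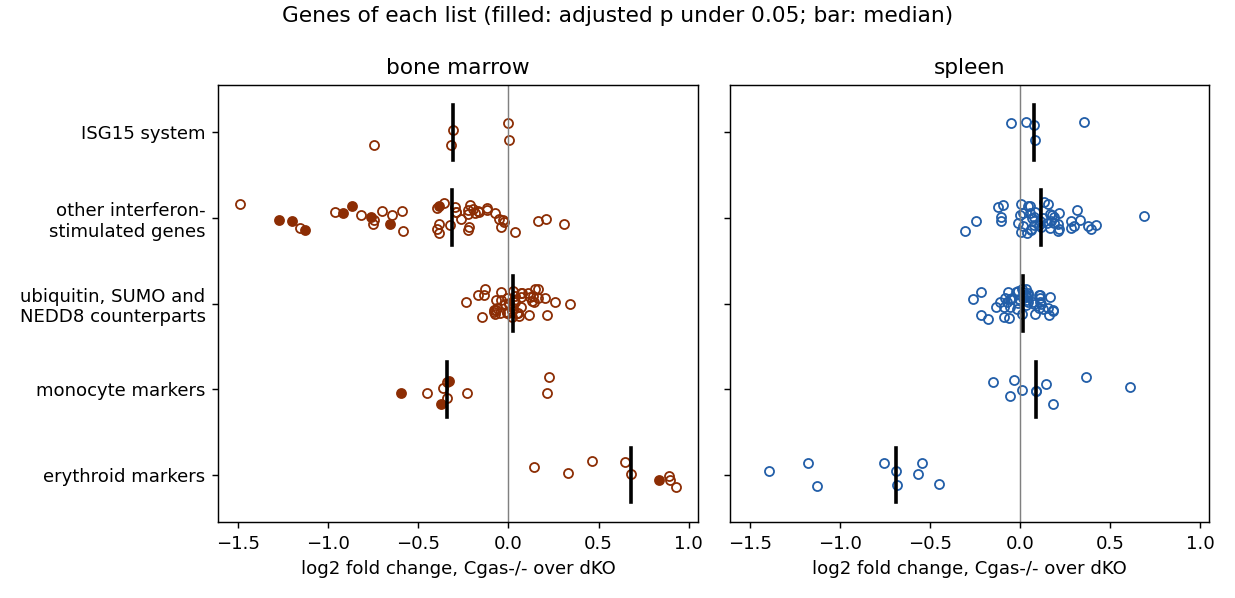
Log2 fold changes, Cgas-/- over dKO, of single genes in the lists (points, filled where called) with the median of each list as a black bar, in bone marrow and in spleen. Other interferon-stimulated genes have medians of -0.31 and 0.11, and counterparts of 0.03 and 0.02.

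Of the reported targets and partners of ISG15, 1 partner was called, in bone marrow, and no target was. Of 14 substrates 10 were below 0 in the authors' deposited bone marrow table with a median of -0.07, and 4 of 14 in spleen with a median of 0.05, none called. Of 12 partners listed in bone marrow 7 were below 0 with a median of -0.03. Itgb2, the beta-2 integrin subunit that pairs with Itgal to form LFA-1, a receptor reported for extracellular ISG15, fell by 0.32 (log2) per the authors' deposited bone marrow table (adjusted p = 0.0237, DESeq2, Benjamini-Hochberg). The Itgb2 call was lost with a Student t reference for the Wald score (adjusted p = 0.986 from DESeq2 values) and with the Benjamini-Yekutieli adjustment (0.241). Itgal stood at -0.27 and was not called. In spleen 6 of 14 partners were below 0, none was called, and Itgb2 stood at -0.08.

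Markers of 2 cell types held calls in bone marrow, monocyte and erythroid, and those of no cell type did in spleen. Of 10 monocyte markers 8 were below 0 with a median of -0.34, and Ly6c2, Csf1r and Ms4a4c were called lower in the authors' deposited table. Of 10 neutrophil markers 9 were below 0 with a median of -0.15. All 9 erythroid markers listed were above 0 with a median of 0.68, and Hbb-bt was called higher. All 4 of these marker calls were lost with a Student t reference for the Wald score (adjusted p = 0.986 each from DESeq2 values) and with the Benjamini-Yekutieli adjustment (0.117 to 0.376). The Student t reference dropped most calls of named genes, so its losses do not single these markers out. B-cell, T-cell, plasmacytoid dendritic cell and red pulp macrophage markers had medians of 0.07, 0.07, 0.07 and 0.09 with no call. In spleen all 9 erythroid markers listed were below 0, and the medians were 0.09 for monocyte, -0.21 for neutrophil, -0.69 for erythroid, 0.05 for B-cell, 0.10 for T-cell, -0.13 for plasmacytoid dendritic cell and -0.20 for red pulp macrophage markers, with none called in the authors' deposited table. The part of cell make-up in the values of Isg15 and Herc6 was not tested. The summed mean of the monocyte markers was 24919 in the authors' deposited bone marrow table, its range by group could not be given, and no marker of the lists named here was listed at 0.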

How the data were processed

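QuantSeq FWD 3' libraries were made from RNA that the SPLIT kit had extracted from suspended cells of mouse bone marrow (8 libraries) and spleen (10 libraries), per the labels' protocols. The submitters' processing notes list the build mm10 and the tools STAR 2.6.1, bcl2fastq 1.8.4, Partek and DESeq2. No counting tool, annotation or counting strand is named there. Each deposited mean normalized count is a signal that the authors averaged over both groups, per the file headers. Log2 fold changes and their SEs are the authors' DESeq2 estimates. The Wald score, the p-value and the Benjamini-Hochberg adjusted p-value were used as deposited, after checking how they relate by recomputing them. Without values per library, depth is unknown and a count test could not be made.

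Group levels were computed from the deposited mean and fold change, assuming equal group sizes. The difference between tissues used the deposited SEs and a normal p over 13777 genes. Called means an adjusted p below 0.05. The members and lists were chosen with earlier results of these data known. Named genes are the 5 members, Trex1 and Cgas, the smallest-p or called genes of each list, called or nearest genes around Uba7, and the 5 genes most like Isg15; range ends were named after their values were seen. Not every gene named by this rule is reported here; counts and medians cover all of them. Coordinates are from GENCODE M21 (GRCm38), counted from 1. The steps were tested on simulated data. Alternatives were a Student t reference for the Wald score, a mean of at least 100 or 20, only genes in both tables, the Benjamini-Yekutieli adjustment, centring on the median, and leaving out genes near Trex1 and Cgas. Python 3.11.15, pandas 2.3.3, numpy 2.4.6, scipy 1.17.1, statsmodels 0.14.6 and matplotlib 3.10.9 were used.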

Additional observations from a re-analysis of the deposited data

Results flagged for a closer look

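No gene of the ISG15 system passed the test of the difference between tissues. Of the other genes named in the text or by its rule, 5 differed between the tissues by that test, computed from the authors' deposited tables (normal p, Benjamini-Hochberg over the 13777 genes in both, from DESeq2 log2 fold changes). Over all 13777 genes the test called 8 (0.0581%). Except for Trex1, a targeted gene, these 5 were named because of calls in a tissue, so their choice depended on their values. Rpl29 differed by 4.40 on the log2 scale (adjusted p = 8.05e-27 from DESeq2 values), at 6.45 in spleen and 2.05 in bone marrow in the authors' deposited tables. Tma7 differed by 2.52 (adjusted p = 2.00e-29 from DESeq2 values), at 2.33 in spleen and -0.19 in bone marrow. Trex1 differed by 1.26 (adjusted p = 0.00432 from DESeq2 values), at 2.71 in spleen and 1.45 in bone marrow. Rtp4 differed by 1.20 (adjusted p = 0.00794 from DESeq2 values), at 0.29 in spleen and -0.92 in bone marrow. Rassf1 differed by 1.19 (adjusted p = 0.00229 from DESeq2 values), at 0.63 in spleen and -0.56 in bone marrow. Rpl29, Tma7, Trex1 and Rassf1 lie within 2 Mb of Uba7 on chromosome 9, where genotype and linked sequence cannot be told apart. For all 5 genes, tissue cannot be told apart from transplant, irradiation and host genotype either. Per the authors' deposited tables the mean of Rpl29 was 144 in spleen and 1568 in bone marrow, and that of Tma7 was 91.4 in spleen and 2244 in bone marrow. Their ratios of bone marrow over spleen were 10.9 and 24.5. The median was 1.52 over 7870 genes with a mean of at least 100 in bone marrow and no floor in spleen. Whether counting differed between the separately normalized tables was not tested.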

How the results depend on the processing

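No gene of the ISG15 system was called in either tissue, or for the difference between tissues, under any alternative run. The adjusted p over those alternatives ran from 0.494 to 1.0 for Isg15 in bone marrow, from 0.423 to 1.0 for Herc6 in bone marrow and from 0.764 to 1.0 for the Isg15 difference, starting from DESeq2 values. Of the 8 other interferon-stimulated genes called in bone marrow, 0 were called with a Student t reference for the Wald score and 4 with the Benjamini-Yekutieli adjustment. With a mean of at least 100, 5 were called, because that filter left out Oas1a, Oas2 and Oasl1. The 10 genes called within 2 Mb of Uba7 became 1 in bone marrow and 5 in spleen with the Student t reference. They became 5 in spleen with a mean of at least 100, which left out Col6a4, Dusp7, Trex1, Tma7 and Gm37612. Of the 23 calls of named genes that this filter kept, 0 were lost. The median of the 5 genes in bone marrow, -0.31, was -0.0018 with a mean of at least 100, which leaves 3 of them. Of 35 calls of named genes, counted per tissue, 29 were lost with the Student t reference and 13 with the Benjamini-Yekutieli adjustment, among them Itgb2, Ly6c2, Csf1r, Ms4a4c and Hbb-bt under both. The Student t reference also dropped the targeted genes Cgas and Trex1 in bone marrow (adjusted p = 0.570 and 0.438 from DESeq2 values). A call lost under it therefore does not single a gene out. In spleen Cgas lost its call under 2 of 5 settings, and Trex1 kept its call under all 5. Centring on the median of all genes turned Ube2l6 in bone marrow to 0.0046. The promoter motif was found in 3 of 4 entries instead of 1 with 1 mismatch allowed, in either window. No paired analysis was possible because no values per library were used, and leaving out single libraries was not run for the same reason. Depth per library is unknown, so the SE alone limits what could be detected.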

Other observations

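Ube2l6 stood at a mean of 410 in the authors' deposited bone marrow table and 12.9 in the authors' deposited spleen table. The ratio, 31.7, was reached or passed by 243 of 7870 genes (3.09%) with a mean of at least 100 in bone marrow and a row in both tables, where the median ratio was 1.52. Fau, a ribosomal protein gene that cells generally use, was chosen after its values were seen and stood at 10415 (bone marrow) and 7.10 (spleen), per the authors' deposited tables. No floor was set on the spleen mean, so this pool favours genes that are high in bone marrow, and the rank is a description only. The tables were normalized separately, and whether the counting differed between them was not tested.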
